A study of Mus musculus with 12 samples.

Results

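The myogenic regulatory factors Myod1, Myog, Myf5 and Myf6 were followed across 12 RNA-seq libraries of mouse fibroblasts driven toward skeletal muscle. They were chosen as a gene family by name, with no rule on their values but with earlier results of these data known. They are 4 of the 36229 genes in the table. The cells were C57BL/6 embryonic fibroblasts transduced with Adeno-MyoD, an adenovirus that carries MyoD, the product of Myod1. Every group was exposed to the virus for 24 h in differentiation medium (horse serum at 2%, insulin at 10 µg/ml), which was then renewed for a further 72 h. No group without virus was analysed here, and the labels do not name the promoter that drives MyoD in the vector. The mixed cultures were WT, Kdm5a KO (lacking a histone H3 lysine demethylase), Rb1 KO (lacking the retinoblastoma protein) and DKO (Kdm5a-/-;Rb1-/-), with n = 2 libraries each. WT and DKO cultures also gave n = 2 libraries each of myotubes purified by size and left to recover for 24 h. The design asks how loss of either gene, or of both, alters expression during induced myogenesis. Nothing in the labels says whether replicate libraries are separate cultures, so p-values measure only the spread between these libraries, which may be technical.

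Myogenic regulatory factors are basic helix-loop-helix proteins that pair with E proteins and bind E-boxes, short DNA elements in the control regions of muscle genes. In the embryo and in regenerating muscle, Myf5 and MyoD commit cells to the muscle lineage. Myogenin, the product of Myog, is required for their terminal differentiation into fibres, and Myf6, also called MRF4, acts in commitment and is the prevalent member in mature fibres. MyoD forced into fibroblasts can turn on the muscle programme, including Myog.

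Myod1 (ENSMUSG00000009471) lies on chromosome 7, Myog (ENSMUSG00000026459) on chromosome 1, and Myf5 (ENSMUSG00000000435) and Myf6 (ENSMUSG00000035923) are neighbours on chromosome 10. None of the 4 shares exons with another gene in the reference. Reads from Myod1 may include the vector transcript as well as the cell's own gene, and which of them they came from was not tested. The promoter reference used here held no window for Myod1 or Myf6. It held 1 each for Myog and Myf5, and these start regions are shown. Each is 300 bases from RefSeq (GRCm38.p6), 5′ to 3′ on the gene's strand, with E-boxes in capitals. The first is at chr1:134289754-134290053 on the plus strand and the second at chr10:107486085-107486384 on the minus strand.
Myog: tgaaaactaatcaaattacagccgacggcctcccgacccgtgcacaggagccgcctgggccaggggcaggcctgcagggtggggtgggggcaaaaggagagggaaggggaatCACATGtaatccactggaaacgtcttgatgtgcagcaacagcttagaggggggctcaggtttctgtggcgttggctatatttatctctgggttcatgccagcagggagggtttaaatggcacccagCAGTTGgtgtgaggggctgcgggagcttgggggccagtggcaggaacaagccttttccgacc
Myf5: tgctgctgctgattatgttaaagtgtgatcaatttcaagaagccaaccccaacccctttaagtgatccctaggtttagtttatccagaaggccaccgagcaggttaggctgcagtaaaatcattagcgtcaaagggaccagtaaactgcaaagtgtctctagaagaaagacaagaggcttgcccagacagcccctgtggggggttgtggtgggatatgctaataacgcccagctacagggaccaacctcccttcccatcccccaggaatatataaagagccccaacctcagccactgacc
The motif searched was CANNTG, which reads the same on both strands. The Myog window held 2 matches, CACATG and CAGTTG, and the Myf5 window held 0. Of 32851 promoter windows of this length, 72.3% held at least 1 match and 39.6% held at least 2, so neither window is unusual by this count, and a match is not a binding site.

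Libraries held 11983750 to 41309134 reads in the mixed cultures and 8688604 to 15570731 in the purified ones. The DKO purified replicates stood apart, with a median absolute log2 difference between them of 0.508 against 0.106 to 0.185 in the other groups. Purified and mixed libraries also differ in RNA selection (oligo(dT) against ribosomal depletion) and read length (36 against 40 bases), so purification cannot be told apart from library preparation. Rb1 KO and WT differed in Ddx3y, a Y-linked gene, at 1267 and 1080 against 3319 and 3308, with no Xist reads in either. Xist had between 3110 and 9881 normalised counts in Kdm5a KO and DKO libraries and at most 2.49 in the others, and Ddx3y had no reads in Kdm5a KO and DKO, so Kdm5a genotype cannot be told apart from sex. Kdm5a was 1637 and 1871 in WT and 1088 and 1192 in Kdm5a KO. Rb1 was 5616 and 5649.5 in WT and 4457 and 4448 in Rb1 KO, but 5309 and 5662 in DKO, and since the deleted part is not given in the labels, whole-gene levels do not check the genotypes. All 12 myotube markers had reads in every group. Their summed level per kb was 104067 to 104412 in WT, 82172 to 87638 in Kdm5a KO, 15271 to 15326 in Rb1 KO and 42656 to 43018 in DKO. The 12 fibroblast markers summed to 4476 to 5001, 3855 to 4352, 12237 to 14041 and 2424 to 2613 in the same order. In such bulk RNA, fewer muscle cells and less RNA per cell cannot be told apart.

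Myog was the most abundant member per length in every group, followed by Myod1. In WT mixed cultures the mean level per kb of exon was 11498 for Myog, 3422 for Myod1, 241 for Myf6 and 0 for Myf5. Myog made up 75.9% of the summed per-kb level of the family in WT, 72.7% in Kdm5a KO, 83.1% in Rb1 KO and 86.4% in DKO. Myod1 supplied 22.6%, 27.2%, 16.9% and 13.6% in the same order. Myf6 held 1.57% in WT and at most 0.144% in the 3 mutants.

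**Figure D1:**
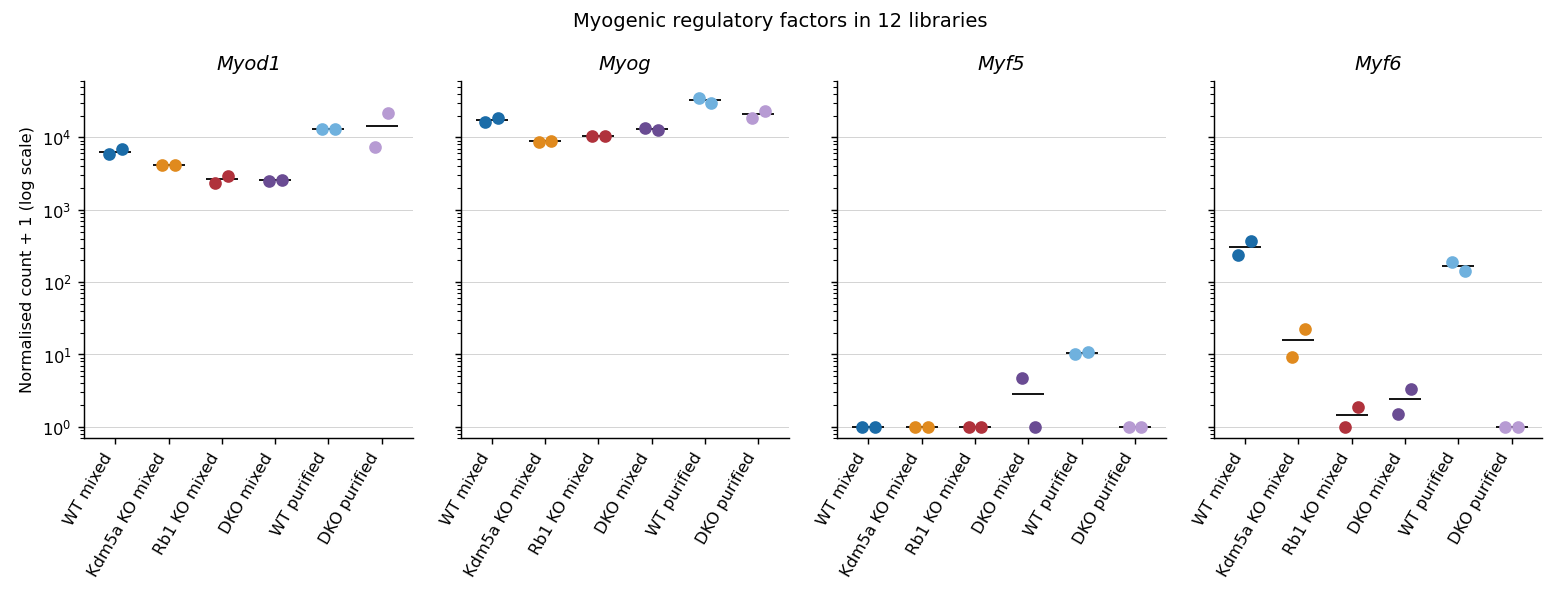
Normalised count + 1 of each member (log axis) in the 12 libraries by group, with points for libraries and bars for group means. Myog and Myod1 are high in all groups, Myf6 is above 100 in the WT mixed and purified libraries only, and Myf5 is below 11 on this axis throughout.

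Myod1, which encodes the factor supplied by the virus, was highest in WT among the mixed cultures. Its normalised counts were 5852 and 6886 in WT, 4124 and 4120 in Kdm5a KO, 2351 and 2907 in Rb1 KO, and 2502 and 2611 in DKO. The WT and Kdm5a KO libraries lay above all Rb1 KO and DKO libraries, whereas Rb1 KO and DKO overlapped. Group means were 6369 ± 731 (SD, n = 2) in WT, 4122 ± 2.99 in Kdm5a KO, 2629 ± 393 in Rb1 KO and 2557 ± 77.5 in DKO.

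Myog, which encodes the factor of terminal differentiation, had another order. The libraries gave 16127 and 18252 in WT, 8748 and 8969 in Kdm5a KO, 10378 and 10372 in Rb1 KO, and 13309 and 12735 in DKO. No groups overlapped, and the order was WT, DKO, Rb1 KO, Kdm5a KO. Means were 17190 ± 1503 (SD, n = 2), 13022 ± 406, 10375 ± 4.74 and 8858 ± 156 in that order.

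Myf6 was far higher in WT than in any mutant. It stood at 234.5 and 374 in WT, 8.14 and 21.7 in Kdm5a KO, 0 and 0.905 in Rb1 KO and 0.526 and 2.37 in DKO. These rest on 547 reads in WT, 40 in Kdm5a KO, 1 in Rb1 KO and 7 in DKO. Myf5 had no reads in WT, Kdm5a KO or Rb1 KO mixed libraries and 7 and 0 reads in the DKO libraries.

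Loss of Kdm5a alone went with lower levels of Myod1 and Myog. Changes are log2 differences of the normalised count + 1 (± standard error) from limma, adjusted over all genes tested, and the words rose and fell are kept for an adjusted p under 0.05. The scale understates changes of genes with few reads. Myod1 fell by 0.62 ± 0.09 (adjusted p = 0.000387) and Myog fell by 0.95 ± 0.06 (adjusted p = 3.83e-07). Thus the 2 members counted here fell, where 13.8% of the 17199 genes tested fell, 13.4% rose and 27.2% passed in either direction. Myf6 passed the filter on low values only through the WT libraries, so it had to be lower in the mutants. Its changes, here -4.37 ± 0.64, are therefore given as descriptions without a p and counted in no tally. Myf5 was not fitted. Mean Myod1 was 64.7% and mean Myog 51.5% of WT. The reads of Myf6 were 19.5 times as frequent in WT as in Kdm5a KO (95% exact interval 14.2 to 27.7, counting error only).

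In Rb1 KO cultures Myod1 and Myog were both below WT, Myod1 at the lower share of its WT level. Myod1 fell by 1.28 ± 0.09 (limma adjusted p = 6.30e-08), to a mean of 41.3% of WT. Myog fell by 0.73 ± 0.06 (limma adjusted p = 1.26e-07), to 60.4% of WT. Of all genes tested, 34.3% fell and 36.8% rose in this comparison (71.1% in either direction), and 45.2% changed by no more than Myog in either direction. The Myf6 change was -7.75 ± 0.64, and its single Rb1 KO read gives a ratio of 569 (95% exact interval 102 to 22517).

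With both genes lost, Myod1 stayed low and Myog was nearer to WT. In DKO against WT mixed cultures, Myod1 fell by 1.31 ± 0.09 (limma adjusted p = 6.29e-08), to 40.1% of WT. Myog fell by 0.40 ± 0.06 (limma adjusted p = 4.22e-05), to 75.8% of WT, where 33.9% of the genes tested fell and 34.0% rose (67.9% in either direction). The Myf6 change was -7.03 ± 0.64, with reads 195 times as frequent in WT (95% exact interval 94.1 to 488).

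Set against each single mutant, the DKO had more Myog. Against Rb1 KO, Myog rose by 0.33 ± 0.06 (limma adjusted p = 0.000433), 1 member where 23.1% of genes rose, 24.2% fell and 47.3% passed in all. Myod1 differed by -0.03 ± 0.09 (adjusted p = 0.804), and Myf6, on 7 reads against 1, by 0.72 ± 0.64. Against Kdm5a KO, Myog rose by 0.56 ± 0.06 (limma adjusted p = 2.01e-06) while Myod1 fell by 0.69 ± 0.09 (adjusted p = 2.65e-05). That is 1 member up and 1 down, where 33.7% of genes rose and 33.4% fell (67.2% in either direction). Myf6 differed by -2.67 ± 0.64 on 7 reads against 40, and other settings put it between -3.32 and -1.22. These comparisons share libraries with each other and with those against WT.

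**Figure D2:**
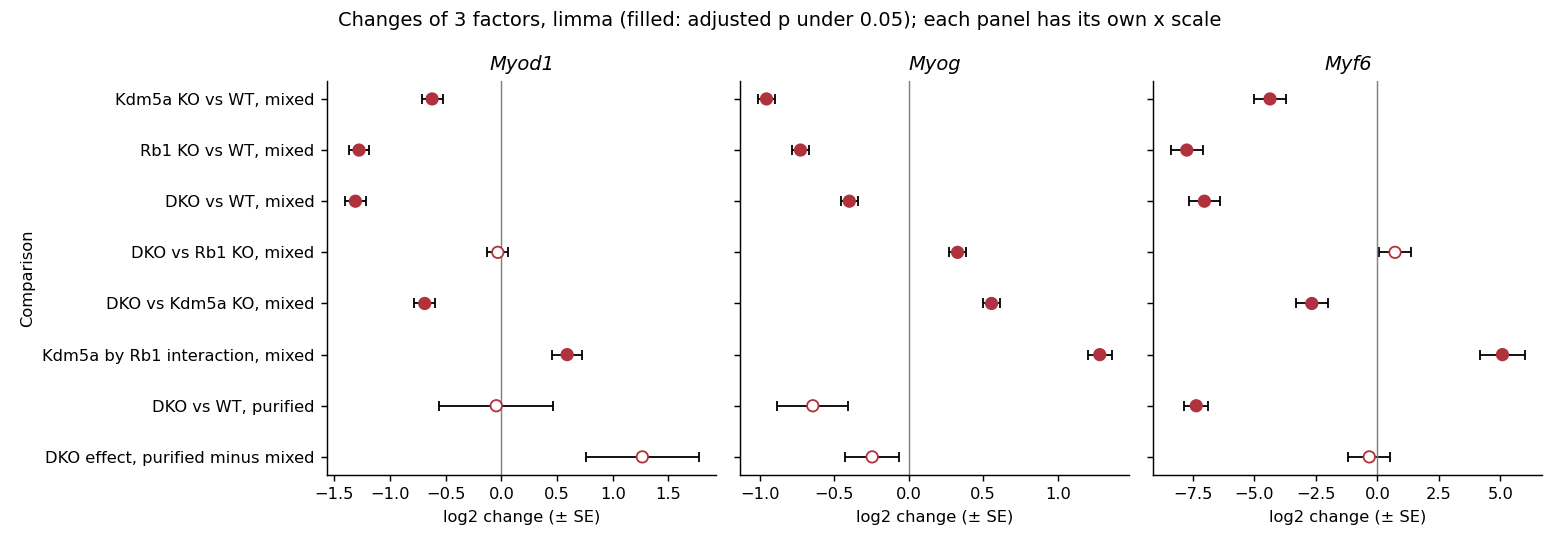
Log2 change of Myod1, Myog and Myf6 (± standard error) in each comparison, from limma, with filled points for an adjusted p under 0.05 (no test is read from those of Myf6) and a separate x scale per gene. Myod1 and Myf6 lie further below 0 in the comparisons of Rb1 KO and DKO with WT than in Kdm5a KO, and Myog is above 0 in DKO against either single mutant.

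The effect of Rb1 loss differed between the Kdm5a backgrounds for Myog and Myod1. In these libraries the Kdm5a background cannot be told apart from sex. The interaction, the Rb1 effect without Kdm5a minus the Rb1 effect with it, was 1.28 ± 0.08 for Myog (limma adjusted p = 1.41e-07) and 0.59 ± 0.13 for Myod1 (adjusted p = 0.00362). Both were positive, where 18.8% of the genes tested passed as positive, 19.5% as negative and 38.3% in all. For Myog the sign of the Rb1 effect turned, from -0.73 with Kdm5a present to 0.56 without it. Myod1 fell by 1.28 with Kdm5a present and fell by 0.69 without it. The Myf6 value of 5.08 ± 0.91 rests on at most 7 reads in each Rb1-deficient group, near the floor, and is not read as a difference.

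In the mixed cultures the balance of the factors moved with genotype. The ratio of Myog to Myod1 counts within a library was 2.76 and 2.65 in WT, 2.12 and 2.18 in Kdm5a KO, 4.41 and 3.57 in Rb1 KO and 5.32 and 4.88 in DKO. The 4 mixed groups did not overlap. In purified myotubes the ratio was 2.70 and 2.31 in WT and 2.51 and 1.09 in DKO, which overlapped. Reads of Myod1 may include the vector transcript in all of these ratios. Among the mixed cultures, ratios of genes of the muscle programme to Myog varied more widely. Myh3, the embryonic myosin heavy chain, was 4.78 and 4.21 times Myog in WT, 11.3 and 11.98 times in Kdm5a KO, 0.422 and 0.451 times in Rb1 KO and 1.53 and 1.66 times in DKO. Mymk, the membrane activator of myoblast fusion, was 0.734 and 0.677 times Myog in WT and 1.31 and 1.19 times in Kdm5a KO. It was 0.348 and 0.346 times in Rb1 KO and 0.338 and 0.361 times in DKO, where the groups overlapped. These are count ratios, not corrected for gene length.

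**Figure D3:**
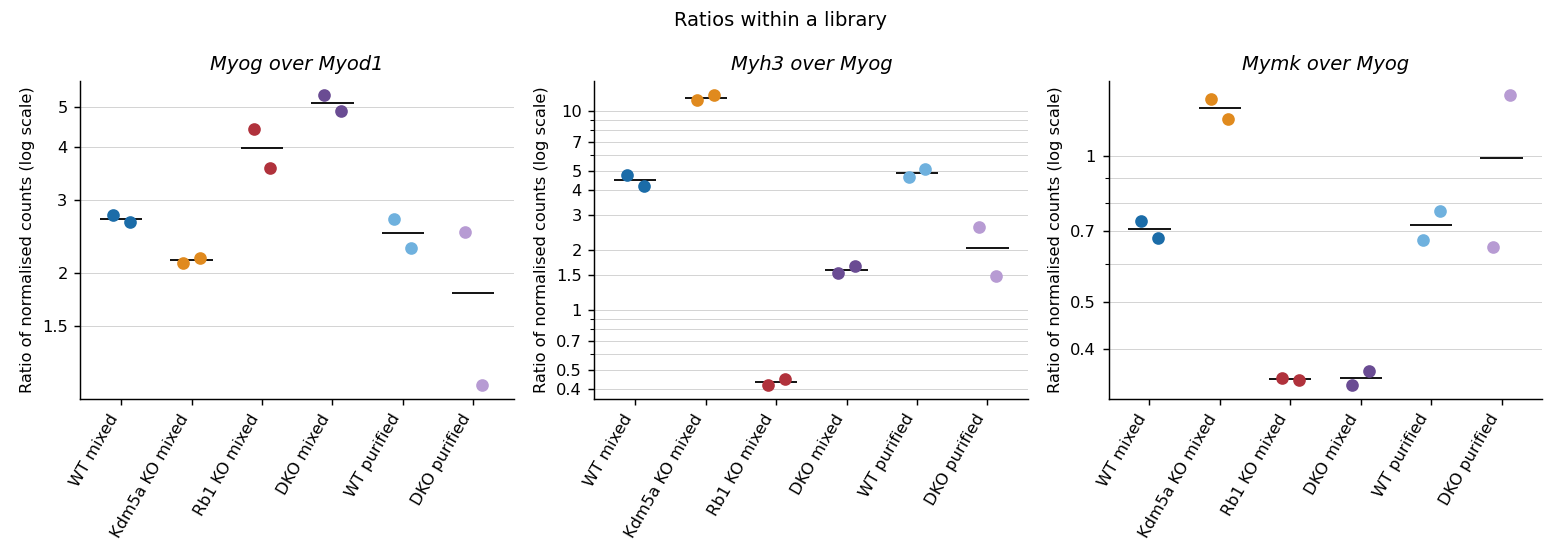
Ratio of normalised counts within each library (log axis) for Myog over Myod1, Myh3 over Myog and Mymk over Myog, by group, with bars for group means. Myog over Myod1 is highest in DKO mixed cultures, and Myh3 over Myog ranges from 0.422 in Rb1 KO to 11.98 in Kdm5a KO.

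In purified myotubes Myog and Myod1 were more abundant than in mixed cultures, and Myf6 was not. Myod1 was 12979 and 13074 in WT and 7443 and 21379 in DKO. Myog was 35029 and 30136 in WT and 18646 and 23213 in DKO, without overlap. WT purified means were 2.05 times the mixed mean for Myod1, 1.90 times for Myog and 54.3% for Myf6.

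The DKO purified libraries disagreed on Myod1. The gap between them was 2.87-fold, and 6.54% of 16486 genes had a gap as large, whereas their Myog gap was 1.24-fold. Myod1 differed by -0.05 ± 0.51 between DKO and WT (limma adjusted p = 0.948). It was 0.71 without DKO purified replicate 1 and -0.81 without DKO purified replicate 2. Myog differed by -0.64 ± 0.24 (adjusted p = 0.0853), and by -0.49 without replicate 1 and -0.80 without replicate 2. With a single DKO library left, the spread comes from the WT pair alone, so these values are given without a p. Myf6 was 188 and 143 in WT and had no reads in DKO, so WT was at least 84.2-fold higher, with 3 reads over the group as the floor. Its fitted change was -7.37 ± 0.49, a description since it passed the filter only through WT. Neither Myod1 nor Myog passed, where 18.6% of the 16670 genes tested fell and 39.6% passed in either direction. Myf5 had 5 and 8 reads in WT, or 9.30 and 9.94 normalised counts, and none in DKO, so WT was at least 5.07-fold higher on the same floor.

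No fitted member's DKO effect passed as different between purified and mixed cultures, where 24.8% of 17273 genes did (11.6% higher and 13.2% lower in purified). The difference was 1.27 ± 0.51 for Myod1 (limma adjusted p = 0.0955) and -0.24 ± 0.18 for Myog (adjusted p = 0.355), with -0.33 ± 0.85 for Myf6. Without adjustment, 1 member, Myod1, was under the threshold. It was also the 1 member to pass by edgeR, at 1.47 (adjusted p = 0.0493), and by DESeq2, at 1.45 (adjusted p = 0.0193). The DKO purified libraries were 2.87-fold apart for Myod1. With 1 library left out at a time, its difference ranged from 0.50 to 2.03, so no call is read from these passes.

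Genes that lie upstream of the family, act with it or oppose it were described from lists chosen with earlier results of these data known. Of 14 upstream regulators, 12 were measured in mixed cultures. In Rb1 KO 6 of these rose and 2 fell, where 36.8% of all genes rose and 34.3% fell, with a median change of 0.76 against 0.03 for all genes. Pax3, which activates muscle commitment in the embryo, was 0 and 1.07 in WT, 0 and 0 in Kdm5a KO, 99.9 and 110 in Rb1 KO and 1.05 and 3.56 in DKO. Its Rb1 KO libraries stood above all other mixed libraries. Pax3 is among the 6 that rose but passed the filter on low values only through Rb1 KO, so it had to be higher there. No test is read from its rise. Six4, which encodes a homeodomain activator of Myog, rose in Rb1 KO by 0.90 and in DKO by 0.60.

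Among 11 dimer partners and DNA-binding cofactors, 6 rose and 4 fell in Rb1 KO, with a median of 0.31, where 71.1% of all genes passed in either direction. Tcf3, which encodes E proteins that pair with these factors, rose by 1.55, and Tcf12, another E protein gene, by 0.75. Mef2c, a cofactor of the family, fell by 3.56 in Rb1 KO, fell by 1.70 in DKO and fell by 0.20 in Kdm5a KO. Mef2a, which shares exons with Lysmd4, rose by 0.73 in Rb1 KO and 1.39 in DKO. In purified DKO myotubes Mef2c fell by 3.28 and Mef2a rose by 2.41. Of 12 coactivators and chromatin cofactors, 5 rose and 5 fell in Rb1 KO, with a median of 0.03, near the shares of all genes (36.8% and 34.3%). Smarcd3, a chromatin remodelling subunit that shares exons with Chpf2, fell by 0.87 there and fell by 0.59 in Kdm5a KO.

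More inhibitors of the family rose than fell in Rb1-deficient cultures, of 19 measured out of 20. In Rb1 KO 13 rose and 2 fell, with a median of 1.18, where 36.8% of all genes rose and 34.3% fell. In DKO 11 rose and 3 fell, with a median of 0.61, where 34.0% rose and 33.9% fell. Hey1, a Notch-responsive repressor, rose by 2.89 in Rb1 KO and 2.09 in DKO. Twist1, which binds E proteins and blocks MyoD, rose by 1.52 and 1.24. Id1, which sequesters E proteins, fell by 0.68 in Rb1 KO and fell by 1.32 in DKO. The 3 inhibitors that fell in DKO were Id1, Id2 (-0.26) and Id3 (-1.19). In Rb1 KO Id2 rose by 0.27, Id3 differed by 0.008 (limma adjusted p = 0.94) and Mdfi, another inhibitor, fell by 0.73. In Kdm5a KO 6 inhibitors rose and 3 fell, with a median of -0.12, where 13.4% of all genes rose and 13.8% fell. The fibroblast markers rose in Rb1 KO for 11 of 12 genes, with a median of 2.55, and in DKO for 8 of 12 with 2 falling, with a median of 0.54, although their summed level was below WT there. All 4 measured neural markers and all 4 measured endothelial markers also rose in DKO. The 6 listed neural markers summed to 582 to 624 per kb there, against 182 to 213 in WT. The 6 endothelial ones summed to 73.8 to 75.6, against 30.8 to 32.3. Of the smooth muscle markers 2 rose and 3 fell in DKO. Satellite cell and macrophage markers each had 2 that rose and 2 that fell, and cardiac and adipocyte markers each 0 and 1. The part of these markers in the results was not tested.

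Most targets of the factors fell in Rb1 KO. All 26 were measured, and 23 fell and 1 rose (34.3% and 36.8% of all genes), with a median of -2.90, beside -1.28 for Myod1 and -0.73 for Myog. Myh3 fell by 4.09 and Mymk fell by 1.75. Chrnd, the delta subunit of the muscle acetylcholine receptor, fell by 3.12. Des, the muscle intermediate filament gene, fell by 4.18 and shares exons with Gm15179.

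In Kdm5a KO, where mean Myog was the lowest of the mixed cultures, 14 of the targets fell and 4 rose (13.8% and 13.4% of all genes), with a median of -0.24. Myh3 rose by 0.42 there, while Ckm, muscle creatine kinase, fell by 1.30 and shares exons with A930016O22Rik. Between the single mutants, mean Myog was higher in Rb1 KO while the median change of the targets was lower there, a difference given as values with no test. In DKO 24 fell and 2 rose (33.9% and 34.0% of all genes), with a median of -1.39. Mymx, the second fusion gene, rose by 1.45.

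Against Rb1 KO, 19 of the 26 targets rose in DKO and 2 fell (23.1% and 24.2% of all genes), with a median of 1.47, beside 0.33 for Myog and -0.03 for Myod1. Des rose by 2.58, Myh3 by 2.20, Chrnd by 1.87 and Mymk by 0.34. The summed myotube markers were higher in DKO than in Rb1 KO (42656 to 43018 against 15271 to 15326). Myh3, Ckm, Acta1 and Des are in both the target and the myotube marker lists, so these are not independent of each other. In purified DKO against WT, 14 targets fell and 3 rose, with a median of -1.06, where 18.6% of all genes fell and 39.6% passed in either direction. The summed myotube markers were 216827 to 218917 per kb in WT and 104157 to 130990 in DKO. Mymx rose by 3.41 and Ckm by 2.36, while Myh3 fell by 1.96.

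**Figure D4:**
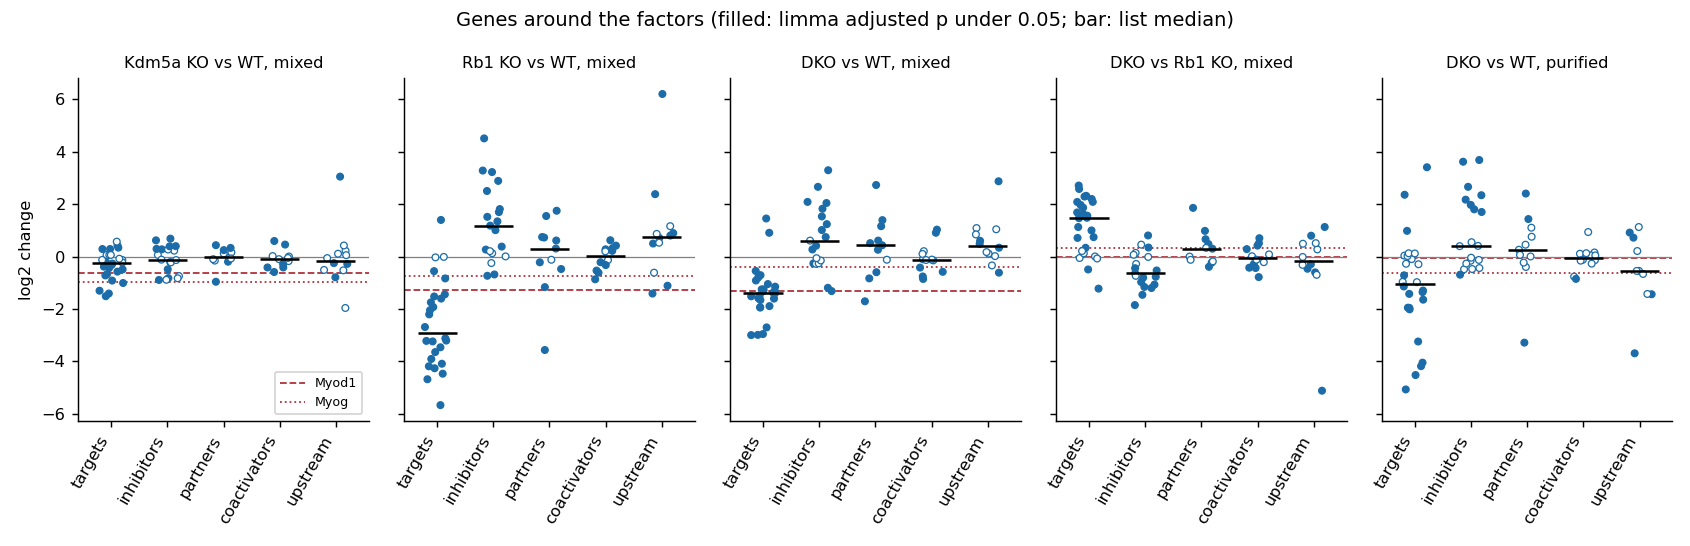
Log2 changes of the genes in each pathway list by comparison, with list medians. Targets lie furthest below 0 in Rb1 KO, at a median of -2.90, and above 0 in DKO against Rb1 KO, at a median of 1.47.

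Across the 8 mixed libraries, Myod1 and Myf6 were the most alike of the fitted members, with Pearson's r of 0.98, against 0.48 for Myod1 and Myog and 0.60 for Myog and Myf6. These describe 4 groups of 2 libraries, which share their library preparation, and carry no test. Myf6 passed the filter on low values only through WT and had 1 read in Rb1 KO and 7 in DKO, near the floor. Its r values, here and below, are therefore descriptions from which no likeness in the Rb1-deficient groups is read. The 4 genes most like Myod1 were Mettl14 (r = 0.994), Ube2m (0.991), Plin4 (0.990) and Galnt2 (0.988), and Plin4 and Galnt2 share exons with other genes. Those most like Myog were AW551984 (0.993), Popdc2 (0.968), Uchl1 (0.965) and Tmem64 (0.962). AW551984 averaged 2226 in WT, 70.1 in Kdm5a KO, 173 in Rb1 KO and 657 in DKO, the same order as Myog. Those most like Myf6 were Bloc1s4 (0.994), Smarcd3 (0.989), Tspan9 (0.988) and Zfp282 (0.987). Popdc2, Uchl1, Bloc1s4 and Smarcd3 also share exons with other genes. An r of at least 0.9 was reached by 760 of 10746 genes for Myod1 (7.07%), by 434 of 10747 for Myf6 (4.04%) and by 21 for Myog (0.195%).

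**Figure D5:**
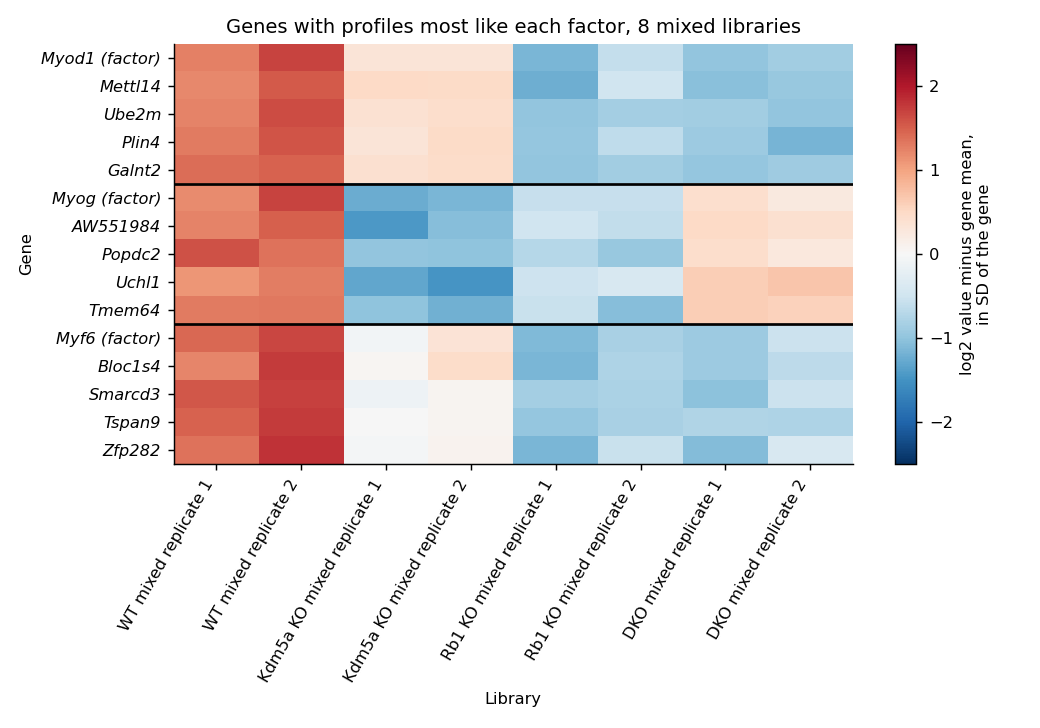
Log2 value of each member and its 4 most alike genes, minus the gene's mean and divided by its SD, in the 8 mixed libraries (colour scale). Myod1 and Myf6 groups fall from WT to the Rb1-deficient cultures, and the Myog group is lowest in Kdm5a KO.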

How the data were processed

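Values are the signal the authors deposited per gene and library, reads divided by a size factor. TopHat 1.2.0, the mm9 build and DESeq are named in the submitters' processing notes. The DESeq version, the read counter and the annotation release are not given in the sources used here. Whole reads were recovered, 100% of values lying within 0.01 of an integer, and served for depth, counting intervals and the count tests. GENCODE M21 supplied symbols (for 85.5% of identifiers), exon lengths and overlaps. The test was limma 3.58.1 (R 4.3.3) with an intensity trend on log2(value + 1), for genes with a mean of at least 10 in the fitted libraries, two-sided, Benjamini-Hochberg adjusted over those genes, threshold 0.05. The 8 mixed, 4 purified and all 12 libraries were fitted separately, and the procedure was tested on simulated data. Alternatives included edgeR 4.0.16, DESeq2 1.42.0, other pseudocounts, TMM scaling, no filter, a replicate block and each library left out. The family and the lists were chosen with earlier results of these data known. Named genes were the members, preset examples of each list (1 is not reported here), and the 4 genes most correlated with each member (mean of at least 100, leaving out Gm and Rik clone names). Intervals cover counting error only.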

Additional observations from a re-analysis of the deposited data

Results flagged for a closer look

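The effect of Rb1 loss differed with Kdm5a status for Myod1 and Myog by the test of the difference itself (limma interaction), at 0.59 for Myod1 and 1.28 for Myog on the log2 scale. The same test gave 5.08 for Myf6, which passed the filter on low values only through WT and has 1 and 7 reads in the Rb1-deficient groups, so no difference is read from it. Kdm5a status cannot be told apart from sex in these libraries.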

How the results depend on the processing

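Of 373 alternative settings of 24 member results, 364 kept the direction of called results and their side of the threshold, among them all 283 of the 18 mixed-culture results. The rest concern purified myotubes. Leaving out 1 library at a time, Myod1 in purified DKO against WT ranged from -0.81 to 0.71, reversing without DKO purified replicate 1, and Myog from -0.80 to -0.49. With 1 DKO library the spread is that of the WT pair, and the lone library is assumed to vary like it, so crossing the threshold there is not read as a call. The DKO effect in purified minus mixed cultures ranged from 0.50 to 2.03 for Myod1 and from -0.40 to -0.087 for Myog. That of Myod1 also passed by edgeR (1.47) and DESeq2 (1.45). Counts of genes past the threshold, with 1 library left out, ranged from 3057 to 4697 for Kdm5a KO against WT (4685 with all), from 1983 to 11574 in purified cultures (6598) and from 2471 to 8989 for the difference between library types (4292). The cause was not tested. Replicate numbers did not pair the libraries, with correlations of -0.047 to 0.052 over 15 pairs of groups. With a replicate block, 4629 genes passed in Kdm5a KO against WT and 7629 in purified cultures, and no member's call changed. Myf5 had a value only without the filter, where it was -3.41 in purified DKO against WT (limma adjusted p = 0.0115). For the DKO effect in purified minus mixed cultures it was -4.52 (limma adjusted p = 0.00552). Both rest on 13 WT purified reads against 0 in DKO purified and are not read as calls. A fit of the compared groups alone was not run for the interaction or the library-type difference, and for purified cultures it equals the fit reported. It gave no Myf6 value for DKO against either single mutant, where Myf6 was under the filter. For Myf6, other pseudocounts and left-out libraries put the Rb1 KO change between -9.15 and -5.17. Depth limits Myf5 and the mutant levels of Myf6.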
